A study of Mus musculus with 16 samples.

Results

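The 44 genes described here encode proteins that copy DNA in S phase. They were given as a list of names, and all 44 were among the 16039 genes of the deposited table. By role, 5 license replication origins, 10 form or activate the replicative helicase and 9 belong to the DNA polymerases and the primase. A further 6 form the sliding clamp and its loader, 2 process and join Okazaki fragments and 5 supply nucleotides. The last 4 act on newly made chromatin and 3 protect the fork or repair the copied strand. The list holds no cyclin, cyclin-dependent kinase or E2F factor, so its members are called replication genes below.

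The genes were measured by single-cell RNA-seq (10x Genomics) in 16 female C57Bl/6J mice (7 weeks old when housed), with 1 library of transverse colon per mouse. Colitis was induced with 4% dextran sulfate sodium (DSS), which injures the colon epithelium and which these mice drank until collection. On day 4 of DSS they were given SZN-1326-p, which activates Wnt signalling through specific Frizzled (FZD) receptors, or anti-GFP as control antibody, either at 10 mg/kg. Cells were collected on day 5 (24 h after dosing) or day 6 (48 h) from 3 mice for each agent and time. Uninjured mice, without DSS, numbered 2 on each day. Cells came from an EDTA-released epithelial fraction and from digested lamina propria, and were sorted, so the mixture of cell types in a library depends on these steps. The deposited annotation gave each of 22717 cells 1 of 46 types. The epithelial types StemCell, TA1 and TA2 (TA is read here as transit-amplifying) are called progenitors here.

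Replication starts when the origin recognition complex, Cdc6 and Cdt1 load the Mcm helicase onto DNA, while geminin (Gmnn) blocks Cdt1 after licensing. Cdc45 and the GINS complex then turn the helicase on, and the polymerases follow it with the Pcna clamp. In the colon, S-phase cells sit in the lower crypt, where stem cells and transit-amplifying cells divide under Wnt signals. Many replication genes are textbook targets of E2F factors, which bind near their start sites at the G1/S transition.

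The 3 stretches of 100 bases printed here show what such sites look like in genes whose RNA was higher at 24 h (values below). They are the stretches around an E2F match upstream of the start site, in members that passed the test, that touch no annotated exon. Letters are from the RefSeq promoter table on GRCm38.p6, read 5′ to 3′ on the gene's strand, and capitals mark the E2F match. The stretches were chr17:56304082-56304181 on the plus strand, inside the annotated Uhrf1 gene, chr8:75109314-75109413 on the plus strand, outside the annotated Mcm5 gene, and chr1:128359706-128359805 on the minus strand, outside the annotated Mcm6 gene.
Uhrf1: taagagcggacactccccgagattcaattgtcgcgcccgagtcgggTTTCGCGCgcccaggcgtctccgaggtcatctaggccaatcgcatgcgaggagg
Mcm5: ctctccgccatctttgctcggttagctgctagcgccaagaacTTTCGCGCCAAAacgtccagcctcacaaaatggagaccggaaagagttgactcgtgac
Mcm6: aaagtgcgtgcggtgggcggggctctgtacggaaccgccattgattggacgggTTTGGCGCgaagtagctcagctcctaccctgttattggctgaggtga
In Mcm5 the capitals hold 2 overlapping matches on opposite strands.

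Promoter windows of 300 bases (250 before to 50 after the start) were in the table for 36 of the 44 genes. Any of the letters TTTCCCGC, TTTCGCGC, TTTGCCGC or TTTGGCGC, searched on both strands, occurred in 16 of these 36 genes (44.4%). Counted by promoter they occurred in 16 of 42 (38.1%), against 744 of 32851 promoters in the whole table (2.26%). CCAAT, the letters of the NF-Y site, occurred in 22 of the 42 promoters (52.4%) and in 37.4% of all promoters. CACGTG, the E-box bound by Myc, occurred in 6 of the 36 genes (16.7%), or 14.3% of their promoters, and in 7.15% of all promoters. A match is a run of letters and not a measured binding site.

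Across cell types the 44 genes were highest in transit-amplifying cells. A level is the mean over the cells of 1 mouse of the UMIs (transcript molecules) of a gene, divided by the cell's size factor. Summed over the 44 genes it was 21.6 ± 2.79 normalized UMIs per cell in TA2 (SD over the 14 mice with at least 20 such cells) and 15.3 ± 2.69 in TA1 (7 mice). It was 10.2 ± 0.916 in IgA plasma cells (4 mice), 8.74 ± 3.84 in the type TcellCD8_NK (9 mice) and 8.38 ± 2.85 in StemCell (11 mice), and these 3 ranges overlap. The type AltEnteroPC had 6.05 ± 2.91 (15 mice, 3.32 to 14.1), and the type ImmEntero2 was lowest at 2.42 ± 0.104 (4 mice). With all cells of a type pooled, TA2 held 22.2, which was 9.26 times the lowest type. These levels describe the annotation and carry no test, since cells were clustered on their expression. A sum weighs the more abundant genes most.

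**Figure D1:**
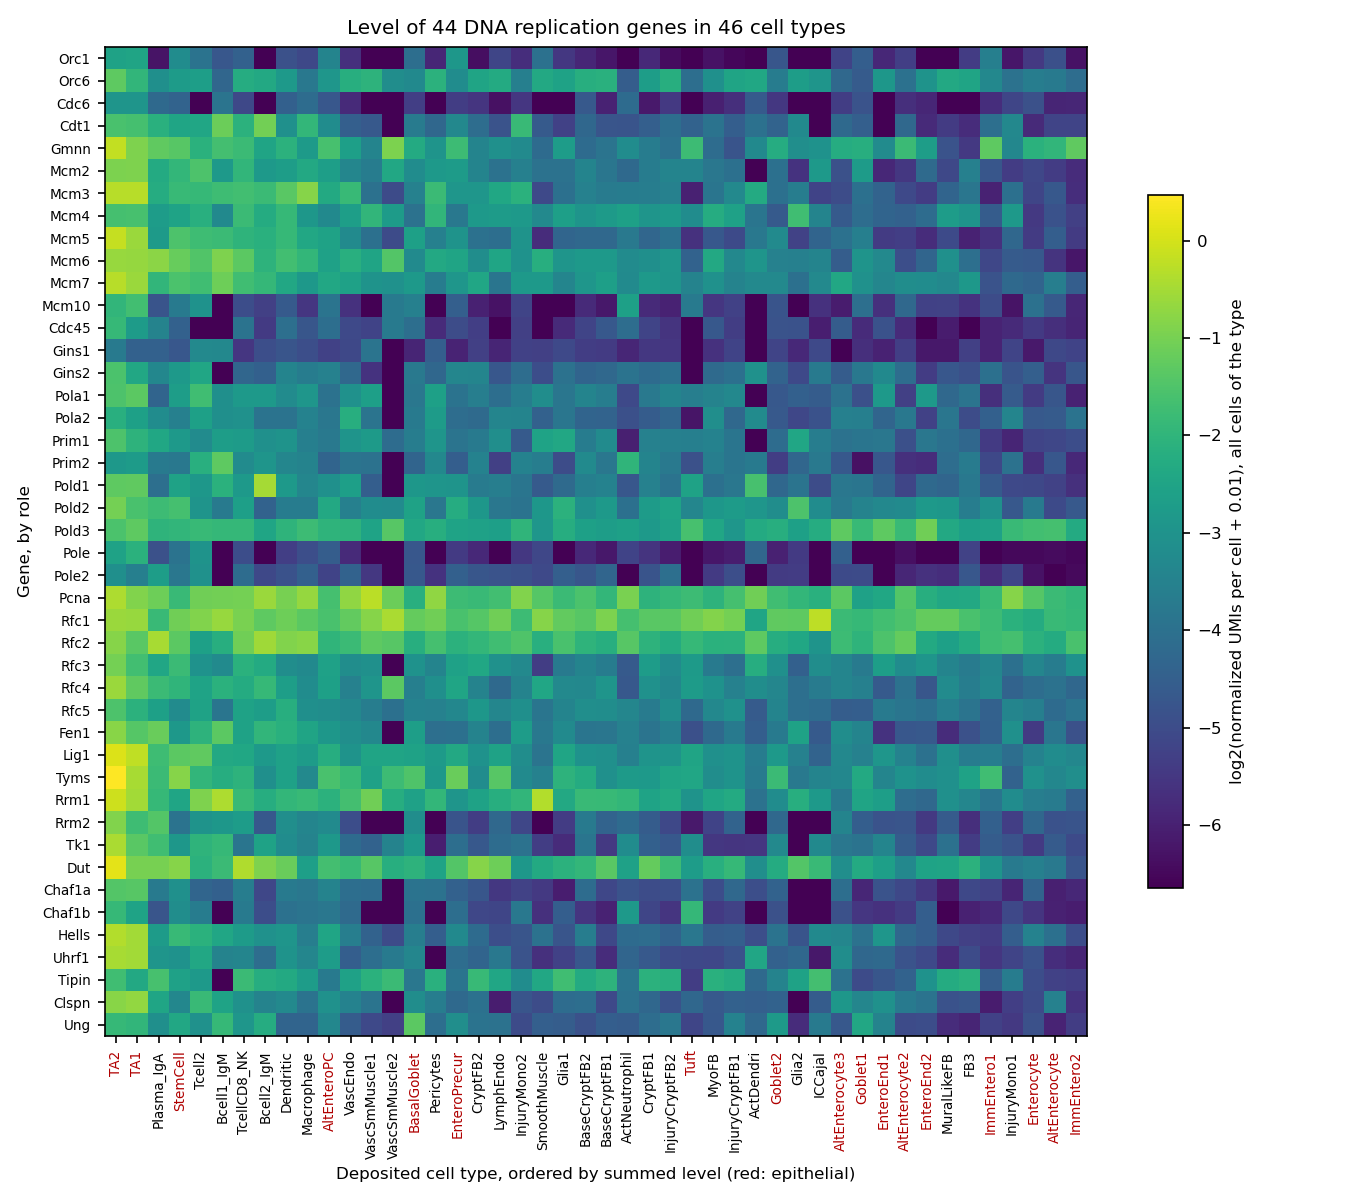
Level of each of the 44 genes (rows, grouped by role) in each of the 46 deposited cell types (columns, ordered by the summed level, epithelial types in red), as log2 of normalized UMIs per cell plus 0.01 over all cells of the type. TA2 and TA1 at the left are brightest for most rows, while Rfc1 and Pold3 vary little along their rows.

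TA2 was the type with the highest level for 24 of the 44 genes and TA1 for 9. By this level, which is scaled by size factors, IgA plasma cells were highest for 3, Tipin, Rfc2 and Pole2. Tipin stabilises stalled forks, Rfc2 is a clamp loader subunit and Pole2 a subunit of the leading-strand polymerase. The 8 other genes were highest in other types, such as Ung, which removes uracil from DNA, in BasalGoblet. The level in TA2 was 9.56 times that in StemCell for Rrm2, the S-phase subunit of ribonucleotide reductase. It was 7.17 times for Cdc45, 6.51 times for Clspn, the fork checkpoint adaptor, and 6.33 times for Uhrf1, which brings DNA methylation to new strands. At the other end it was 1.35 times for Pold3, a subunit of the lagging-strand polymerase. These ratios pool the cells of all mice, and 52.2% of StemCell cells came from uninjured mice, while 66.8% of TA2 cells came from mice given SZN-1326-p. Between both transit-amplifying types the ratio of TA1 to TA2 ran from 0.439 for Dut, which destroys dUTP, to 1.39 for Pole, the catalytic subunit of the leading-strand polymerase.

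Most of the 44 genes followed each other over the 46 types. The Spearman correlation of a gene with the sum of the other 43 over 46 types ran from 0.035 for Pold3 to 0.893 for Mcm6, and it was 0.186 for Mcm10, which helps to fire origins. Types share depth and library, so these are descriptions. Of 14542 genes outside the list, those with the most similar pattern by the same measure were Ncl (0.854), Nolc1 (0.835), Mybbp1a (0.818), Rcc2 (0.815) and Aatf (0.814). Ncl, Nolc1, Mybbp1a and Aatf encode nucleolar proteins and Rcc2 a regulator of mitosis.

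The libraries held 936 to 2033 cells each, with a median of 6459 to 11153.5 UMIs per cell, and 64 barcode sequences occurred in more than 1 mouse (129 cells). Mitochondrial UMIs had a median share of 18.9% in treated mouse 2 of 24 h, of 24.1% in treated mouse 3 of 48 h and of 19.2 to 26.1% in the uninjured mice. No other mouse given DSS exceeded 11.6%. These shares are over all cells, and the treated mice named here held 58.4 and 54.9% epithelial cells. Within epithelial cells their median shares were 33.6 and 36.0%, where the 16 mice ranged from 26.1 to 36.7%. TA1 made up 95.9 and 97.2% of transit-amplifying cells in anti-GFP mice 1 and 2 and 93.1% in SZN-1326-p mouse 1, all of 24 h. It made up 62.8% in uninjured mouse 1 at 24 h, 52.3% in anti-GFP mouse 3 at 48 h and 6.82 to 24.1% in the others, and the 4 highest are called TA1-rich below. Results that rest on these mice are given with and without them. Of the 44 genes, 12 overlap another gene on the same strand and 18 one on the opposite strand (GENCODE vM21), and the strand setting of the counting is not given in the sources used here, so reads shared with these neighbours cannot be told apart. Pcna and Tyms also have pseudogenes.

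At 24 h after dosing the replication genes were higher in the epithelium of the SZN-1326-p mice. The sum over the 44 genes in all epithelial cells was 7.32, 5.22 and 6.72 normalized UMIs per cell in anti-GFP mice 1, 2 and 3 and 12.9, 13.2 and 12.2 after SZN-1326-p. The lowest treated mouse lay above the highest control. By limma on log2 of each mouse's mean plus 0.01, with p adjusted over 10795 genes, 32 of the 43 members tested rose and none fell at an adjusted p below 0.05. Of all genes tested 5.89% were called higher and 4.25% lower. All 43 log2 changes were positive, with a median of 1.06 against -0.06 over all genes tested. Gins1, a GINS subunit, fell below the filter of 0.05 normalized UMIs in 2 mice. Every treated mouse lay above every control for 35 of the 43 members tested and below for 0, where 11% of all genes had every treated mouse higher and 13.3% every treated mouse lower.

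**Figure D2:**
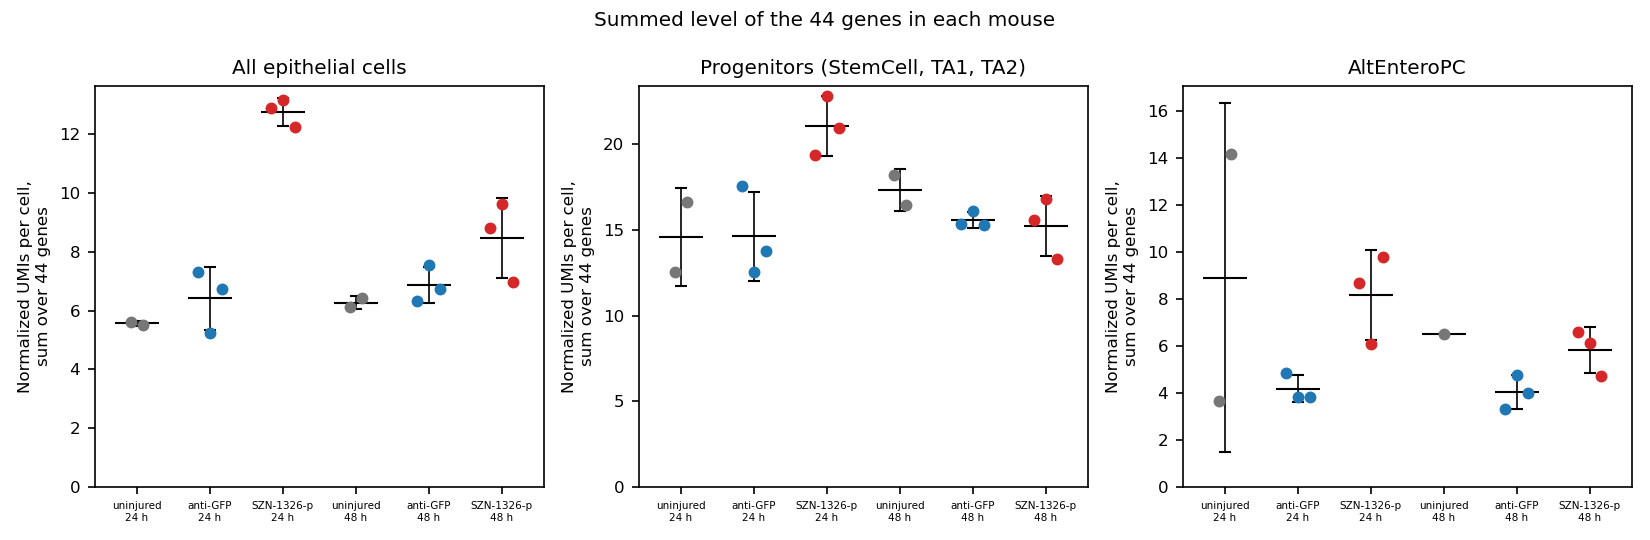
Summed level of the 44 genes (vertical axis, normalized UMIs per cell) in each mouse (points) of the 6 groups, in all epithelial cells, in progenitors and in AltEnteroPC, with the mean and SD of each group. In all epithelial cells the 3 SZN-1326-p mice at 24 h lie between 12.2 and 13.2, above every other mouse.

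Of the origin licensing genes, 3 of 5 rose (Orc6, Cdt1 and Gmnn), with a median change of 0.91. Gmnn was 0.283, 0.193 and 0.292 in the anti-GFP mice and 0.430, 0.475 and 0.626 with SZN-1326-p. Every treated mouse was above every control, a log2 change of 0.97 ± 0.20 (SE, limma adjusted p = 0.00703). Orc1, the largest subunit of the origin recognition complex, did not pass at 0.25 ± 0.23 (adjusted p = 0.517), nor did Cdc6 at 0.90 ± 0.33 (adjusted p = 0.0881).

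Of the 9 helicase genes tested, 7 rose, with a median of 1.13. Mcm5, a subunit of the helicase ring, was 0.206, 0.168 and 0.236 in the controls and 0.426, 0.547 and 0.425 in the treated mice, with no overlap. Its change was 1.16 ± 0.21 (limma adjusted p = 0.00554). Cdc45 was 0.0484, 0.0163 and 0.0539 in the controls and 0.0987, 0.112 and 0.149 in the treated mice. At 1.48 ± 0.36 (adjusted p = 0.0184) Cdc45 had the largest change of the 43 members tested, from a level near the filter and with 1 control mouse well below the other 2. Mcm2, Mcm3, Mcm6, Mcm7 and Gins2 rose by 1.04 to 1.27, while Mcm4 (1.05 ± 0.34, adjusted p = 0.0590) and Mcm10 (0.44 ± 0.29, adjusted p = 0.335) did not pass.

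Among polymerases and primase 4 of 9 rose (Pold1, Pold2, Prim1 and Pole2), with a median of 0.80. Pold2, an accessory subunit of the lagging-strand polymerase, was 0.146, 0.119 and 0.176 in the controls and 0.256, 0.364 and 0.334 with treatment, with no overlap and a change of 1.06 ± 0.21 (adjusted p = 0.00649). The 5 that did not pass were Pola1, Pola2, Prim2, Pole and Pold3, at 0.27 to 0.88.

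Of the clamp and its loader, 4 of 6 rose (Pcna, Rfc3, Rfc4 and Rfc5), with a median of 0.73. Rfc4 was 0.152, 0.0708 and 0.156 in the controls and 0.336, 0.320 and 0.365 in the treated mice, again without overlap, at 1.43 ± 0.23 (adjusted p = 0.00322). Rfc1, the large subunit of the loader, was 0.485, 0.352 and 0.383 in the controls and 0.620, 0.494 and 0.371 in the treated mice. These overlapped, and its change of 0.26 ± 0.19 did not pass (limma adjusted p = 0.407). Pcna, the clamp itself, rose by 0.55 ± 0.15 (adjusted p = 0.0290), the smallest change among the 32 called.

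Both Okazaki fragment genes rose. Fen1, the flap endonuclease, was 0.152, 0.0912 and 0.106 in the anti-GFP mice and 0.281, 0.325 and 0.362 with treatment, with the groups apart and a change of 1.42 ± 0.22 (limma adjusted p = 0.00270). Lig1, the ligase that seals the fragments, was 0.331, 0.242 and 0.287 against 0.610, 0.546 and 0.501. It too separated the groups, at 0.93 ± 0.18 (adjusted p = 0.00649).

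All 5 nucleotide supply genes rose, with a median of 1.11. Tyms, which makes thymidylate, was 0.271, 0.258 and 0.352 in the controls and 0.462, 0.697 and 0.750 with treatment. The groups did not overlap and the change was 1.07 ± 0.19 (adjusted p = 0.00542). Dut had the largest change of the 5 (1.33 ± 0.27, adjusted p = 0.00787), and Rrm1, Rrm2 and Tk1 rose by 0.92, 1.18 and 1.11.

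All 4 chromatin genes and all 3 genes of fork protection and repair rose too. Hells, a chromatin remodeller, was 0.268, 0.178 and 0.161 in the controls and 0.525, 0.516 and 0.290 with treatment, so that the third treated mouse lay close to the first control (1.08 ± 0.27, adjusted p = 0.0202). Chaf1b, a subunit of the histone chaperone CAF-1, was 0.0535, 0.0414 and 0.0608 against 0.135, 0.159 and 0.148, at 1.36 ± 0.24 (adjusted p = 0.00428). Tipin was 0.0532, 0.0479 and 0.0753 against 0.155, 0.195 and 0.174, at 1.44 ± 0.20 (adjusted p = 0.00176), a 2.71-fold difference on this scale with all 3 treated mice above the controls. Clspn was 0.231, 0.113 and 0.133 against 0.482, 0.356 and 0.230, where the lowest treated mouse lay just under the highest control (1.12 ± 0.31, adjusted p = 0.0330).

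**Figure D3:**
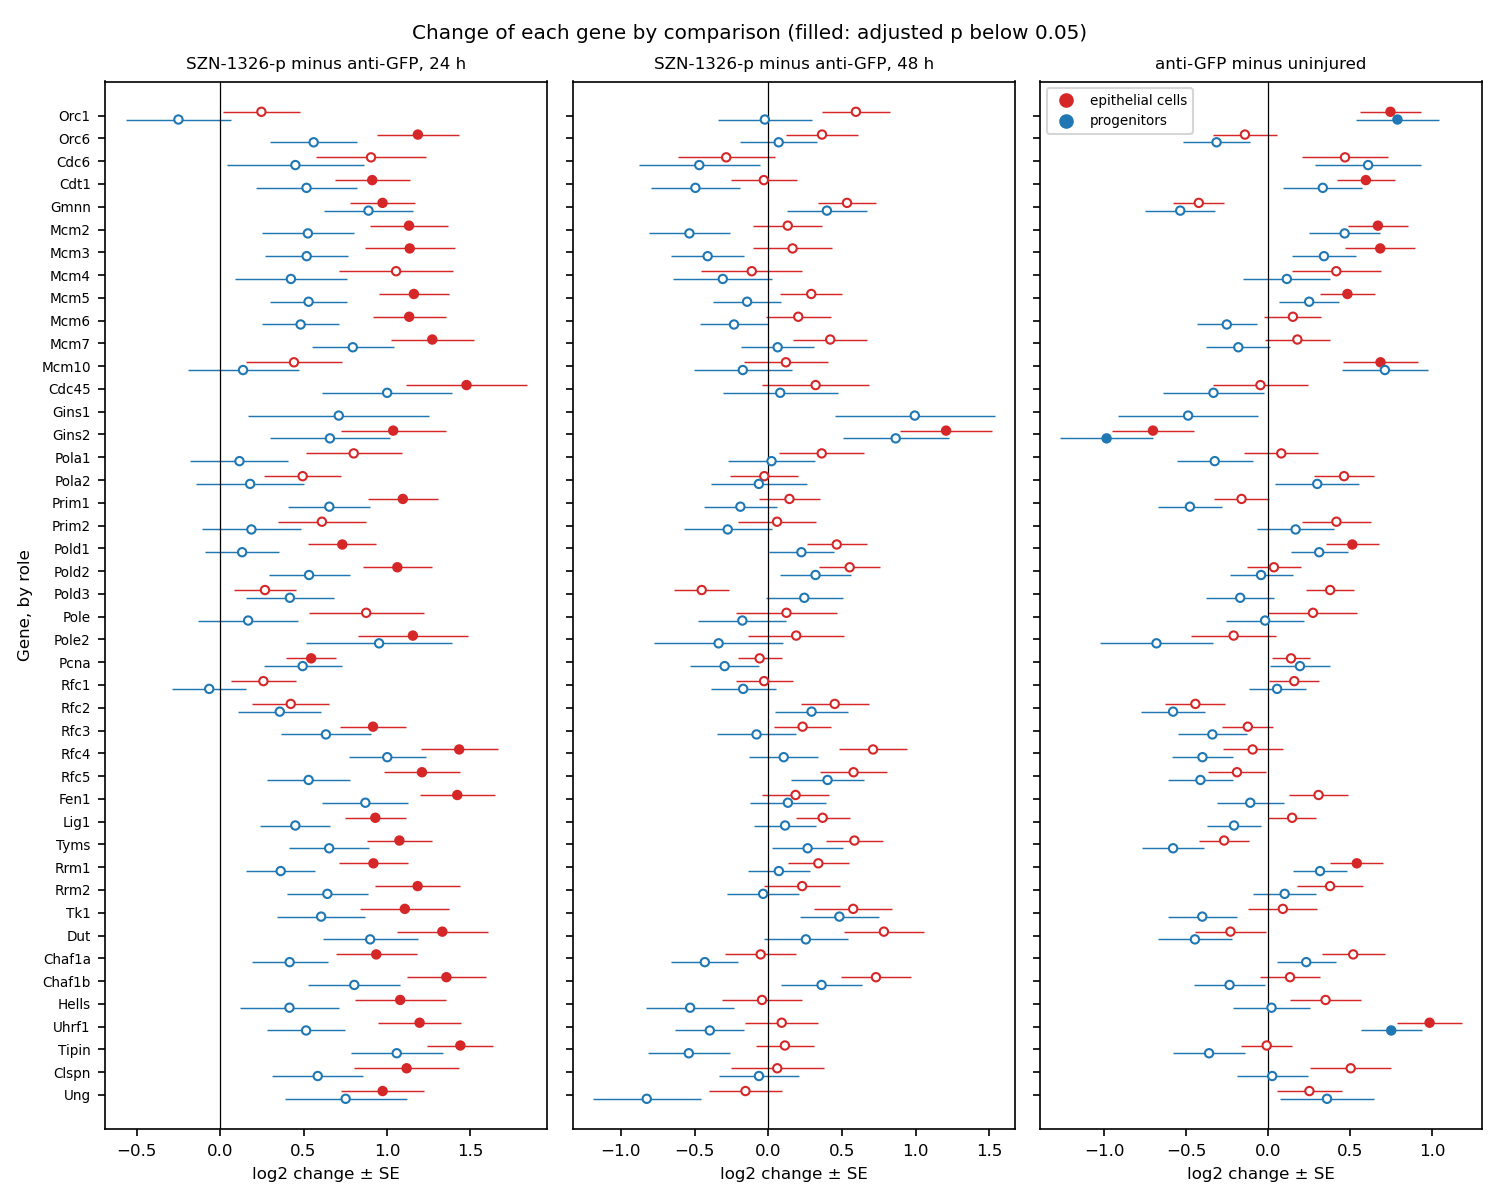
Log2 change and its SE (horizontal axis) of each of the 44 genes, grouped by role, in all epithelial cells (red) and in progenitors (blue), for treated against anti-GFP mice at 24 h and at 48 h and for anti-GFP against uninjured mice. Filled points passed an adjusted p of 0.05: 32 red points at 24 h, 1 at 48 h and 10 in the injury comparison, and no blue point at 24 h or 48 h.

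The 24 h calls depended on the fit. Fitted on the 6 compared mice alone, limma called 0 members and 0 of all genes, while 36 members had an unadjusted p below 0.05. Without anti-GFP mouse 2, the control with the lowest sum, 13 members were called higher (of all genes 1.78% higher and 0.772% lower). Without treated mouse 2, 21 were called higher, a count given without its share over all genes. The 13 were called whichever mouse was left out, Mcm5, Tyms, Fen1, Lig1, Rfc4 and Tipin among them. When the 2 treated mice with many mitochondrial UMIs (1 of them of 48 h) were left out, a choice made after seeing the data, 19 were called higher (of all genes 1.98% higher and 1.37% lower).

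The make-up of the epithelium moved with these values. Progenitors were 27.5, 22.5 and 30.0% of epithelial cells in the anti-GFP mice at 24 h and 51.2, 45.5 and 40.4% after SZN-1326-p, with no overlap. They held 54.0 to 65.9% of the epithelial sum of the 44 genes in the controls and 69.1 to 78.9% with treatment. The 5 colonocyte markers together were at 13.6 to 25.1 in the controls and 7.57 to 9.88 with treatment, and the 4 stem cell markers at 3.50 to 5.09 and 4.27 to 5.87. Their means over the mice were below 0.01 for all 3 T cell markers (Cd3e, Cd3d and Trac) and above it for 5 of the 6 markers of monocytes, macrophages and neutrophils (all but Adgre1), with sums of 0.202 to 1.68 in the controls and 0.348 to 2.14 with treatment. In an average over epithelial cells, fewer cells of a type and less RNA per cell cannot be told apart, so the same genes were read within progenitors and in other cells.

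Within progenitors the 44 genes were mostly higher at 24 h, but no single gene passed. Their sum was 17.6, 12.6 and 13.7 in the anti-GFP mice and 19.4, 22.9 and 21.0 with treatment, without overlap between the groups. All 44 could be tested, 42 had a positive change with a median of 0.53 against 0.01 over all genes, and limma called 0 at an adjusted p below 0.05, where 24 had an unadjusted p below 0.05. Of all genes 0.0558% were called in each direction. The 4 stem cell markers in these cells were at 10.5 to 12.4 in the controls and 6.77 to 9.22 with treatment. Their median mitochondrial share was 38.5 to 43.5% in the controls and 35.4 to 37.7% with treatment, which do not overlap. The part of either in the result was not tested.

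Rfc4 showed the smallest p in progenitors, at 0.354, 0.218 and 0.339 in the controls and 0.526, 0.587 and 0.717 with treatment, a change of 1.00 ± 0.23 (limma adjusted p = 0.0840). The treated mice were all higher. Tipin, with 0.156, 0.107 and 0.147 against 0.226, 0.346 and 0.317, had 1.06 ± 0.28 (limma adjusted p = 0.0975), also without overlap. In these cells every treated mouse lay above every control for 16 of the 44 genes and below for 0, where 7.97% of all genes had every treated mouse higher and 8.8% every treated mouse lower. Leaving out SZN-1326-p mouse 1, most of whose transit-amplifying cells were TA1, gave 6 members higher (of all genes 3.89% higher and 1.98% lower). Leaving out anti-GFP mouse 3 gave 4 (2.79% and 0.898%). TA1 made up 95.9, 97.2 and 6.82% of transit-amplifying cells in anti-GFP mice 1, 2 and 3. In the treated mice it made up 93.1, 7.24 and 7.07%. The arms differ in TA1 share, more so in both of these fits, and its part in the result was not tested. With StemCell left out (chosen after seeing the data), TA1 and TA2 together gave 0 calls (0% of all genes were called), 41 positive changes and a median of 0.49, with 11 genes at an unadjusted p below 0.05.

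In epithelial cells other than StemCell, TA1 and TA2 the summed level was also higher at 24 h. It was 3.44, 3.10 and 3.71 in the anti-GFP mice and 6.07, 5.11 and 6.34 in the SZN-1326-p mice, with every treated mouse above. These cells include AltEnteroPC, whose name may itself mark a progenitor type (PC is read here as progenitor cell). In AltEnteroPC the sum was 4.82, 3.82 and 3.83 against 8.66, 6.06 and 9.77. Of the 42 members that passed the filter there, 41 were positive with a median of 1.09 and 16 had an unadjusted p below 0.05, and limma called 0. Of all genes 0.019% were called higher. In AltEnterocyte, AltEnterocyte2, BasalGoblet and TA1 limma called 0 members at 24 h, with 3, 1, 3 and 0 of them at an unadjusted p below 0.05. Of all genes 0.132% were called higher and 0.0406% lower in AltEnterocyte, 0.0203% higher in AltEnterocyte2 and 0% in BasalGoblet and TA1. TA1 had 2 mice per arm, and without SZN-1326-p mouse 1, which leaves 1 treated mouse whose spread is borrowed from the other groups, it had 4 members called higher and 5 lower, where 9.69% of all genes were called higher and 18.6% lower. An average gave the 5 epithelial types with at least 10 cells in all 6 mice the same weight. They included AltEnteroPC but not StemCell, TA1 or TA2. This average had 0 calls, 13 genes at an unadjusted p below 0.05, 33 positive changes among 36 genes and a median of 0.77. Of all genes 0.0101% were called higher and 0% lower.

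Cells holding several of the transcripts were also counted. After thinning every cell to 3000 UMIs, cells with UMIs of at least 5 of the 44 genes were 10.9 ± 3.55% of epithelial cells in the anti-GFP mice at 24 h and 29.4 ± 4.69% in the SZN-1326-p mice (SD, n = 3). The lowest treated mouse had 24.2% and the highest control 14.9%. Within progenitors the shares were 33.6 ± 10.0% and 54.0 ± 4.97%, and in fibroblasts, which hold few dividing cells, 1.87 ± 0.218% and 2.56 ± 0.732%. In TA2 over all mice the share was 52.4% (exact 95% interval 49.8 to 55.1%, counting error only), in TA1 47.5%, in StemCell 13.3% and in AltEnteroPC 8.24%. The threshold cuts a continuous range: 278 epithelial cells had exactly 5 genes and 340 had 4, of 9658 deep enough, with 715 left out as too shallow. Without thinning the epithelial shares were 34.6 ± 5.53% and 54.3 ± 5.58%.

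**Figure D4:**
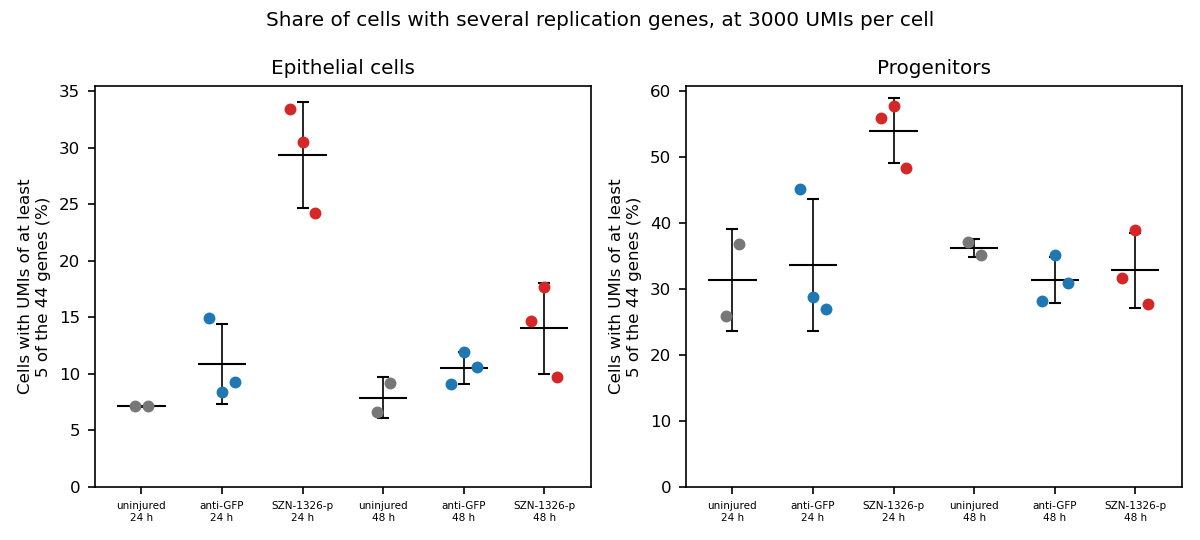
Share of cells (vertical axis, %) with UMIs of at least 5 of the 44 genes after thinning to 3000 UMIs, per mouse (points) with the mean and SD of each group, in epithelial cells and in progenitors. In epithelial cells the 3 SZN-1326-p mice at 24 h lie at 24.2 to 33.4%, and no other mouse exceeds 17.7%.

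At 48 h after dosing 1 member passed the test in the epithelium. The epithelial sum was 6.33, 7.56 and 6.74 in the anti-GFP mice and 8.82, 9.63 and 6.97 after SZN-1326-p. By this sum the third treated mouse, the one with a high mitochondrial share over all cells, lay among the controls. Within epithelial cells its median mitochondrial share was 36.0%, against 34.2 and 30.2% in the other treated mice. Limma called 1 member higher, Gins2, and none lower, with 12 at an unadjusted p below 0.05, 33 of 43 positive and a median of 0.20 against -0.11 over all genes. Of all genes 2.41% were called higher and 10.1% lower. Progenitors were 27.7, 31.3 and 29.7% of epithelial cells in the controls and 32.5, 39.6 and 28.7% in the treated mice, which overlap. The 5 colonocyte markers were at 13.9 to 32.7 in the controls and 2.81 to 3.73 with treatment, and the myeloid markers reached 34.2 in 1 control mouse.

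Gins2, a subunit of the GINS complex, was 0.0655, 0.0742 and 0.0287 in the anti-GFP mice at 48 h and 0.123, 0.168 and 0.117 in the SZN-1326-p mice. Every treated mouse was higher, with a change of 1.21 ± 0.31 (adjusted p = 0.0182). The call was lost without anti-GFP mouse 3, whose level was the lowest. Rfc4 and Chaf1b, with 0.71 ± 0.23 and 0.73 ± 0.24, missed the threshold (adjusted p = 0.0522 and 0.0501). The number called rose to 8, of which 7 were higher, when a term for the TA1-rich libraries was added, a setting chosen after seeing the data, under which 7.08% of all genes were called higher and 16.6% lower.

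Within progenitors at 48 h the sums were 15.4, 16.1 and 15.3 in the controls and 15.6, 16.8 and 13.3 in the treated mice, which overlap. Limma called 0 of the 44, with 2 at an unadjusted p below 0.05, 20 positive changes and a median of -0.05 against -0.05 over all genes. Of all genes 0.139% were called higher and 0.195% lower. StemCell made up 20.0, 21.0 and 22.8% of progenitors in the controls and 31.9, 27.5 and 38.6% with treatment, without overlap. With StemCell left out (chosen after seeing the data), limma called 0 of the 44 in TA1 and TA2, with 2 at an unadjusted p below 0.05, 30 positive changes and a median of 0.17, where 0.165% of all genes were called higher and 0.266% lower. In AltEnteroPC the sums were 3.32, 4.77 and 4.01 against 6.59, 6.13 and 4.70, where the lowest treated mouse lay just under the highest control. Limma called 0 there, with 3 at an unadjusted p below 0.05 and 37 of 42 positive, at a median of 0.65 against -0.03 over all genes, where 0.0665% of all genes were called higher and 0.133% lower. In TA2 it called 0 of 44, with 3 at an unadjusted p below 0.05, where 0.0187% of all genes were called higher and 0.00937% lower. Shares of cells with at least 5 of the genes were 10.5 ± 1.40% and 14.0 ± 4.03% in the epithelium and 31.4 ± 3.49% and 32.8 ± 5.72% in progenitors (SD, n = 3), with overlap in both. Without thinning the order of the means turned. The shares were then 50.0 ± 2.07% in the controls and 45.5 ± 11% with treatment in the epithelium, and 76.7 ± 5.85% and 66.8 ± 7.03% in progenitors. Median UMIs per epithelial cell were 16330 to 17164 in the controls and 9391 to 14646 with treatment. In progenitors they were 13847 to 15467 and 9516 to 14429. The part of this depth in the unthinned shares was not tested.

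The response at 48 h was set against that at 24 h as 1 contrast. In the epithelium all of the 43 members tested but 3 (Orc1, Gins2 and Rfc2) had a smaller response at 48 h, with a median of -0.72 against -0.10 over all genes, but limma called 0, with 24 at an unadjusted p below 0.05. Of all genes 0.00926% were called higher and 0.13% lower. Tipin came closest at -1.33 ± 0.28 (adjusted p = 0.0652): its levels at 48 h were 0.0941, 0.0836 and 0.0796 in the controls and 0.0989, 0.0907 and 0.0906 with treatment. Fen1 had -1.24 ± 0.32 (adjusted p = 0.147). In progenitors limma also called 0 members and 0% of all genes, with 14 members at an unadjusted p below 0.05 and a median of -0.65. With StemCell left out the median was -0.35, with 3 at an unadjusted p below 0.05 and again 0 called.

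The comparison of anti-GFP with uninjured mice, called injury in this text, gave mixed changes in these genes. The anti-GFP mice had both DSS and the control antibody, and no dose is listed for the uninjured mice. DSS and antibody therefore cannot be told apart in it. Over all epithelial cells the sums were 5.62, 5.50, 6.11 and 6.44 in the 4 uninjured mice. They were 5.22 to 7.56 in the 6 anti-GFP mice, and the groups overlapped. That overlap depended on the scaling by size factors. As a share of epithelial UMIs the 44 genes made up 0.383 to 0.508‰ in uninjured mice. The share was 0.512 to 0.730‰ in anti-GFP mice, with every injured mouse higher. Normalized UMIs of all genes averaged 13995.6 to 15344.6 per epithelial cell in uninjured mice and 11641.5 to 12839.7 in anti-GFP mice. Limma, with anti-GFP minus uninjured averaged over both times, called 9 of 43 members higher and 1 lower, with 15 at an unadjusted p below 0.05 and a median of 0.18 against 0.005 over all genes. Of all genes 10.8% were called higher and 12.5% lower. This contrast and those of SZN-1326-p share the anti-GFP mice, so they are given side by side only. Progenitors made up 14.7 to 23.8% of the epithelium in uninjured mice and 22.5 to 31.3% in anti-GFP mice. Equal weights were then given to AltEnteroPC and BasalGoblet, the only epithelial types with at least 10 cells in each of these mice. The direction turned: 7 of 41 members were positive, with a median of -0.61. Of these members 15 had an unadjusted p below 0.05 and 2 were called lower, where 5.33% of all genes were called higher and 2.03% lower. AltEnteroPC had only 56, 20, 10 and 22 cells in the uninjured mice. Its sum was 3.66 in uninjured mouse 1 of 24 h and 14.1 in mouse 2, so this average rests on few cells.

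Uhrf1 changed most with injury. It was 0.0796, 0.0729, 0.0765 and 0.110 in the uninjured mice, 0.274, 0.135 and 0.166 in anti-GFP mice at 24 h and 0.128, 0.202 and 0.180 at 48 h. Every injured mouse was higher, a change of 0.98 ± 0.20 (adjusted p = 0.00220), and it was the only call that stood whichever mouse was left out. The same gene was 0.516, 0.451 and 0.351 with SZN-1326-p at 24 h and 0.209, 0.188 and 0.145 at 48 h.

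Orc1 was 0.0481, 0.0276, 0.0565 and 0.0470 in uninjured mice, and 0.0602 to 0.109 in the 6 anti-GFP mice. The groups did not overlap, and its change was 0.75 ± 0.18 (adjusted p = 0.00849). Mcm3, a helicase subunit, was 0.104, 0.133, 0.135 and 0.142 in uninjured mice and 0.183 to 0.302 in anti-GFP mice, at 0.68 ± 0.21 (adjusted p = 0.0284), again with the groups apart. Mcm10, with 0.0448 to 0.0719 in uninjured and 0.0645 to 0.135 in anti-GFP mice, overlapped between groups and had 0.69 ± 0.23 (adjusted p = 0.0371). Mcm2, Mcm5, Cdt1, Pold1 and Rrm1 rose by 0.48 to 0.67.

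Gins2 was the member that fell with injury. It was 0.0909, 0.0804, 0.114 and 0.124 in uninjured mice and 0.0287 to 0.0985 in anti-GFP mice. The change was -0.70 ± 0.25 at the threshold (adjusted p = 0.0495), with overlap. In this comparison 2 members were called, both higher, without uninjured mouse 2 of 24 h (of all genes 5.35% higher and 5.72% lower), and likewise 2 without uninjured mouse 1 of 48 h (4.43% and 5.12%).

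Within progenitors limma called Orc1 (0.79, adjusted p = 0.0452) and Uhrf1 (0.75 ± 0.19, adjusted p = 0.0144) higher and Gins2 lower (-0.99, adjusted p = 0.0293), with a median of -0.08 for the 44 genes and 11 at an unadjusted p below 0.05. No call was left without uninjured mouse 1 of 48 h, while 3 members were called higher and 4 lower without anti-GFP mouse 3 of 24 h (of all genes 10% higher and 9.24% lower). Of all genes 6.7% were called higher and 4.21% lower. StemCell averaged 54.1% of progenitors in uninjured mice and 16.1% in anti-GFP mice, so the 2 groups' progenitors differ in make-up. With StemCell left out, in TA1 and TA2 together, limma called 10 members lower and 0 higher, where 4.93% of all genes were called lower and 6.7% higher. The median was -0.40 against 0.04 over all genes.

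The 10 were Gins2, Pole2, Tk1, Tyms, Rfc5, Prim1, Gmnn, Rfc2, Rfc4 and Clspn, at -1.33 to -0.62. Tyms was 1.27, 2.02, 1.45 and 1.82 in the transit-amplifying cells of uninjured mice, 0.628, 0.642 and 0.843 in anti-GFP mice at 24 h and 0.872, 1.20 and 0.665 at 48 h. All 6 injured mice were lower, a change of -1.03 ± 0.22 (limma adjusted p = 0.00500). Tyms and Rfc5 kept the call whichever mouse was left out, and 3 members were called lower without uninjured mouse 2 of 24 h (2.06% of all genes) and 4 without uninjured mouse 1 of 48 h (1.99%). The share of TA1 among these cells differs between mice as given above, and with a term for the TA1-rich libraries 16 members were called lower (8.44% of all genes). In TA2 alone the sums were 20.5, 23.8, 26.8 and 24.3 in uninjured mice and 17.2, 19.9, 18.9 and 18.4 in the 4 anti-GFP mice with enough cells, which do not overlap.

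In cells other than epithelium no member passed the test with SZN-1326-p. In fibroblasts limma called 0 of the 33 members tested at 24 h and at 48 h, with 5 and 1 at an unadjusted p below 0.05. In myeloid cells it called 0 of 40 at both times (6 and 5 at an unadjusted p below 0.05), and in T cells 0 of 43 (5 and 2). In B and plasma cells at 48 h it called 0 of 41 (4 at an unadjusted p below 0.05), and at 24 h too few mice had 20 such cells. Median changes were 0.15 and 0.07 in fibroblasts at 24 h and 48 h (22 and 20 of 33 positive), 0.41 and 0.36 in myeloid cells (37 and 33 of 40) and 0.91 and 0.42 in T cells (31 and 28 of 43), where the medians over all genes lay between -0.03 and 0.06. Of all genes 0.09% were called higher and 0.027% lower in fibroblasts at 48 h, 0.0182% higher in myeloid cells, 0.0258% in T cells and 0.00923% in B and plasma cells, and 0% at 24 h where tested. Epithelial markers were at 3.09 to 3.91 in fibroblasts of SZN-1326-p mice at 24 h and 1.67 to 2.44 in the controls. Their mean sum was higher in T cells (12.3), B and plasma cells (10.8) and myeloid cells (6.29) than in fibroblasts (3.26). The part of epithelial RNA in the values of these classes was not tested.

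The gap between the epithelial and the fibroblast response within each mouse was tested directly for 33 members. At 24 h limma called 7 of them higher in the epithelium and none lower, where 1.24% of all genes were called higher and 0.171% lower. The 7 were Fen1 (1.38 ± 0.24, adjusted p = 0.0327), Mcm3, Mcm7, Mcm6, Lig1, Tipin and Rrm1, at 1.03 to 1.38. No call was left without anti-GFP mouse 2, and 0 to 3 were called over the mice left out. At 48 h Gins2 was called (1.28 ± 0.23, adjusted p = 0.00719), where 2.02% of all genes were called higher, and it kept that call whichever mouse was left out.

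With injury, members also passed the test in fibroblasts and myeloid cells. In fibroblasts limma called Pcna higher (0.48 ± 0.17) and Prim1, Rfc4, Dut and Rrm1 lower (-0.72 to -0.46), where 12.4% of all genes were called higher and 10.1% lower. In myeloid cells 2 members were higher (Prim2 and Pcna) and 11 lower, where 18.6 and 12.6% of all genes were called. Lig1 had the largest change there, at 0.174, 0.166, 0.0936 and 0.315 in uninjured mice and 0.0211 to 0.0725 in anti-GFP mice. The groups did not overlap (-1.61 ± 0.38, limma adjusted p = 0.00219). In T cells limma called 0 members with injury (4 at an unadjusted p below 0.05), where 1.24% of all genes were called higher and 0.586% lower. In B and plasma cells it also called 0 (5 at an unadjusted p below 0.05), where the shares were 2.83% and 2.43%.

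The cells in these classes differed between the groups. Macrophage averaged 75.1% of myeloid cells in uninjured mice and 11.9% in anti-GFP mice, where the monocyte types InjuryMono1 and InjuryMono2 made up 23.5 and 33.8%. BaseCryptFB1 averaged 52.8% of uninjured fibroblasts and 0% of those in anti-GFP mice. Without anti-GFP mouse 2 at 24 h 6 members were called in myeloid cells, all lower (10.5% of all genes were called lower), and Mcm3, Dut, Rfc1 and Lig1 kept their call whichever mouse was left out. Without uninjured mouse 1 at 48 h 0 were called in fibroblasts.

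Other genes of the cell cycle were read from 3 fixed lists in the epithelium at 24 h. Of all genes there 5.89% were called higher and 4.25% lower. Of 31 G1/S regulators 9 rose and 1 fell, with a median of 0.43, and without 1 mouse 3 to 10 were called. The entry cyclin Ccne1 was 0.0487, 0.0351 and 0.0286 in the controls and 0.119, 0.109 and 0.133 with treatment (1.48 ± 0.32, adjusted p = 0.00972), without overlap. Myc, a Wnt target and growth regulator, was 0.0840, 0.0572 and 0.0604 against 0.301, 0.142 and 0.181, and rose by 1.45. E2f1, which activates replication genes, rose by 1.22, Mybl2 by 1.16 and Ccnd1, which starts G1 progression, by 0.78. Cdkn1a, the p21 inhibitor of cyclin-dependent kinases, fell by 0.81, and Ccne2 did not pass (0.43, adjusted p = 0.414).

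Of 45 other replication factors tested (of 47), 21 rose and 0 fell, with a median of 0.78, led by Exo1, an exonuclease (1.48 ± 0.36), and Asf1b, a histone chaperone (1.47 ± 0.33). Of 30 mitosis genes 15 rose, with a median of 0.94, led by Birc5 (1.64 ± 0.30), which guards chromosome segregation, and Cdk1 (1.42 ± 0.27), the mitotic kinase. Mki67, a marker of cycling cells, was 1.91, 1.42 and 0.860 in the controls and 4.04, 1.82 and 1.43 with treatment. These overlapped, and it did not pass (0.72, adjusted p = 0.316), nor did Top2a, which untangles chromosomes (0.89, adjusted p = 0.0639). Without anti-GFP mouse 2 at 24 h 4 other replication factors and 3 mitosis genes were called, where the shares over all genes are those given above.

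At 48 h the mitosis genes had a larger median change than the 44 genes. In the epithelium 9 of 30 were called higher with a median of 0.71, against 1 of the 43 members with 0.20, where 2.41% of all genes were called higher and 10.1% lower. The 9 calls went to 0 without anti-GFP mouse 1 or treated mouse 2 and to 17 without anti-GFP mouse 2. These counts are given without their shares over all genes. Of the G1/S regulators 0 rose and 2 fell (Cdk2 by 0.60 and Cdkn1a by 1.04), and of the other replication factors 2 rose (Asf1a and Dtymk). In progenitors 2 mitosis genes were called, Hmmr (1.25 ± 0.25, adjusted p = 0.0319) and Ccnb1 (1.16 ± 0.24, adjusted p = 0.0339), with 29 of 30 positive and a median of 0.71. Ccnb1, the cyclin of mitotic entry, was 0.210, 0.321 and 0.251 in the controls and 0.494, 0.587 and 0.690 with treatment, and the groups did not overlap. Without anti-GFP mouse 1 at 48 h neither was called. The difference between the lists was not tested.

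**Figure D5:**
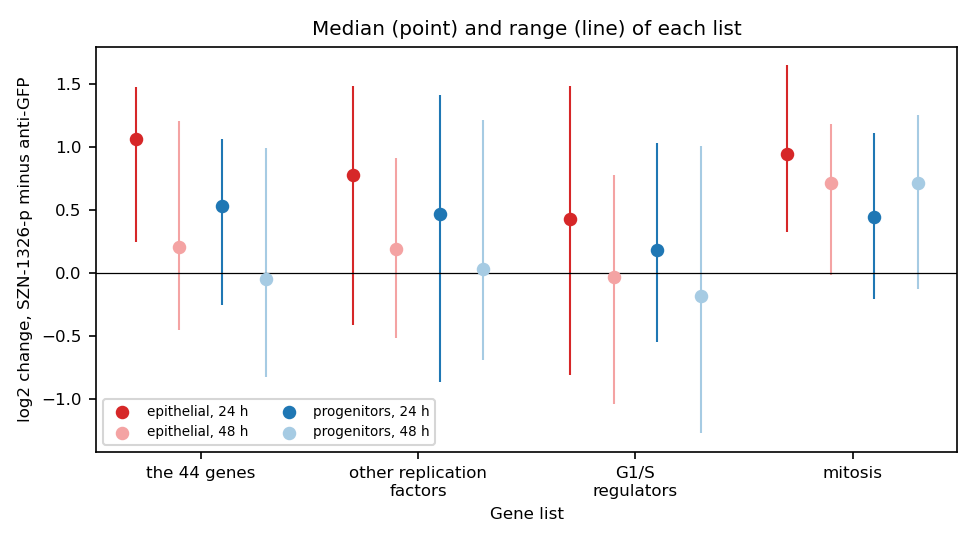
Median (point) and range (line) of the log2 change of SZN-1326-p against anti-GFP (vertical axis) for the 44 genes and 3 other lists (horizontal axis), in epithelial cells (red) and progenitors (blue) at 24 h (dark) and 48 h (light). Medians of the 44 genes lie at 1.06 and 0.20 in the epithelium and at 0.53 and -0.05 in progenitors, while those of mitosis are 0.71 at 48 h in both.

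Against uninjured mice, 8 of 31 G1/S regulators rose in the epithelium of anti-GFP mice and 1 fell, where 10.8% of all genes were called higher and 12.5% lower. Ccnd1 rose most (1.63), followed by Cdk2 (0.89) and E2f2 (0.86), and Cdkn1a fell by 1.84. Cdkn1a was 4.15, 6.17, 4.86 and 4.38 in uninjured and 0.967 to 1.95 in anti-GFP mice, which lay far apart. Of 45 other replication factors 3 rose and of 30 mitosis genes 1, both below the share over all genes. In TA1 and TA2 together 24 of 30 mitosis genes and 6 of 47 other replication factors were called lower, beside the 10 members, where 4.93% of all genes were.

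The E2F letters did not divide the members by response. Of the 16 members with a match anywhere in the 300 bases 12 were called higher at 24 h with a median of 1.00, and of the 20 without one 17 were, with a median of 1.10. Uhrf1, Mcm5 and Mcm6, whose stretches are printed above, rose by 1.20, 1.16 and 1.13. Fen1 and Cdc45, with larger changes, had no match in their windows, which says only that these letters are not there.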

How the data were processed

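Per the submitters' processing notes, reads were counted with Cell Ranger 3.0.2 on mm10. The authors deposited log2 values: the UMI count of a gene over a size factor of the cell, plus 1. With the log2 undone, 100% of the values above 0 in a cell were integer multiples of its smallest step (tolerance 1e-06). The deposited annotation by the authors is in the unit other (text labels of mouse, arm, time and cell type); its treated arm, named SWAP, was taken as SZN-1326-p. The authors' size factors, cell filters and doublet treatment are not given in the sources used here, and no doublet caller was run.

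Normalized UMIs were averaged per mouse and class (at least 20 cells). Log2(mean + 0.01) was tested with limma 3.58.1 under R 4.3.3 (trend and robust options), all 6 groups in 1 fit, each mouse 1 replicate, for genes at 0.05 or more in at least 2 mice, with Benjamini-Hochberg adjustment at 0.05. A test on counts had been planned; the deposited unit called for this one. This test was run on simulated data for epithelial cells and progenitors. The simulated spread between mice was set below the fitted spread, with counting noise added. The simulation therefore gives no error rates for these data. Values by mouse are given for the most abundant member of each role and the 5 largest calls per epithelial contrast, with others by range. Python 3.11.15, numpy 2.4.6, scipy 1.17.1 and pandas 2.3.3 gave levels, shares and motif counts, and matplotlib 3.10.9 the plots. Members, lists and tests were chosen with earlier results of these data known. Depth is the UMIs per cell given above. Alternatives were other scalings, filters, pseudocounts, weights, mice left out, fits and a replicate block.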

Additional observations from a re-analysis of the deposited data

How the results depend on the processing

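Counts of members called moved as follows from the values above. Here and in the next paragraph they stand without the share over all genes in each setting. They show how the calls moved and are not a result about the members. In the epithelium at 24 h (32), fitting the compared groups alone or with fixed type weights gave 0, and leaving out both high-mitochondrial mice gave 19. At 48 h (1) the number was 0 with fixed type weights, 2 with the replicate block or without those mice, 3 with a pseudocount of 0.1, 5 with the compared groups alone, voom or median-of-ratios scaling, and 8 with a term for TA1-rich libraries. The 48 h minus 24 h contrast gave 1 with that term. Injury (10) gave 22 with voom, which moved the median of all genes by 0.26, and 2 with fixed type weights (2 types only). In progenitors at 24 h (0) voom and the library term gave 1 each, and with injury (3) the number was 1 with no filter, 6 with voom, 7 with the library term and 10 in TA1 and TA2 alone, where that term gave 16. Under fixed type weights, which hold no transit-amplifying type in that comparison, Mcm3 (-0.93), Mcm2 (-0.59), Pold1 (-0.38), Rrm1 (-0.44) and Mcm5 (-1.09) turned to lower with injury.

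Leaving out 1 mouse gave 13 to 31 calls in the epithelium at 24 h, 0 to 3 at 48 h, 0 to 1 for their difference and 2 to 11 with injury. In progenitors it gave 0 to 6 at 24 h and 0 to 7 with injury, and 3 to 15 in TA1 and TA2 with injury. It gave 0 to 9 in TA1 at 24 h, 0 to 4 in fibroblasts and 6 to 13 in myeloid cells with injury, 0 to 1 in T cells and in B and plasma cells with injury, and 0 to 3 and 1 to 2 for epithelium minus fibroblasts at 24 h and 48 h.

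The ratio of shares of cells with several members, SZN-1326-p over anti-GFP, was 1.57 at 24 h and 0.910 at 48 h in unthinned epithelium, and in progenitors at 48 h 0.875 with at least 8 members and 0.871 unthinned. Whether replicate numbers pair mice was not settled. Correlations of same-numbered anti-GFP and treated mice at 24 h were 0.39, -0.30 and 0.44. Those of other numbers ran from -0.62 to 0.41. At 48 h the same-numbered pairs had 0.13, 0.066 and 0.32, and the others ran from -0.25 to 0.079. Each same-numbered pair at 48 h was above the other pairs of its anti-GFP mouse. The replicate block gave 34 calls at 24 h. The causes were not tested. The number of mice, 3 a group, and the depth limit the precision for members near the filter.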
